A study of Homo sapiens with 9 samples.

Results

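The 10 genes described here are classical targets of the unfolded protein response: HSPA5, DNAJB9, DNAJC3, SDF2L1, HSP90B1, CALR, PDIA4, HERPUD1, CRELD2 and MANF. They encode chaperones and folding factors of the endoplasmic reticulum (ER), apart from HERPUD1, a membrane protein of ER-associated degradation. The 10 were chosen by name, with earlier results of these data known, and are 10 of the 27635 gene symbols in the table. All 10 passed the filter on low values, and SDF2L1, the lowest of them, had at least 0.5 TPM in 6 of the 9 libraries. RNA was sequenced from T47D cells, a human estrogen receptor-positive breast cancer line. The 9 libraries form 3 groups of 3. In monoculture (MC) the cancer cells grew alone, in contact culture (CC) they shared the dish with HS5 cells, and in conditioned medium (CMed) they received the medium of HS5 cells. HS5 is a human bone marrow stromal line used as a model of mesenchymal stem cells (MSCs). Conditioned medium was included as the control for soluble factors of the MSCs.

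In all groups, cells spent 24 hours in full medium and then 48 hours in low-glucose medium free of phenol red, with 1% FBS and 10 nM estradiol. Contact cultures were seeded at 10% cancer cells to 90% MSCs, and the T47D cells were recovered from them on EpCAM (CD326) beads and columns. The other groups had no such step, so contact and recovery cannot be told apart. T47D and HS5 are each 1 established line, and nothing in the labels tells separate cultures from repeat preparations of the same one. The p values therefore measure the spread between these libraries only.

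The ER folds secreted and membrane proteins. When unfolded proteins build up there, the sensors IRE1 (ERN1), PERK (EIF2AK3) and ATF6 are activated. ATF6 is cut by the proteases MBTPS1 and MBTPS2, and IRE1 splices the mRNA of XBP1. Both arms raise chaperones and ER-associated degradation (ERAD), whereas PERK slows translation and raises ATF4 with its targets, such as DDIT3 (CHOP). Many chaperone promoters carry an ER stress element (ERSE), in which NF-Y binds CCAAT and ATF6 binds CCACG, or the shorter ERSE-II first described for HERPUD1.

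Promoter sequences were taken from RefSeq on GRCh38.p14 and matched by symbol for all 10 genes. Each window runs from 250 bases before to 50 bases after a start site, and PDIA4 has 2 windows, which gives 11. ERSE was searched as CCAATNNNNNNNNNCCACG and ERSE-II as ATTGGNCCACG, both on either strand. ERSE was found in the windows of 4 genes (HSPA5, HSP90B1, CRELD2 and CALR) and in 27 of all 35116 windows (0.0769%). ERSE-II was found for 2 genes (HERPUD1 and SDF2L1) and in 19 of all windows (0.0541%). No matches shared bases with each other. The third motif searched, the XBP1 core TGACGTG, was in none of the 11 windows and in 692 of all windows (1.97%). These are matches of letters and not measured binding. ERSE and ERSE-II are known from promoters of such genes, as stated above, so their matches beside the shares of all windows are descriptions and not tests. The windows of DNAJB9, DNAJC3, PDIA4 and MANF held none of the 3 motifs as spelled here. The matched stretches are shown so that their ends and spacers can be compared between genes. Capitals mark the bases that the search fixed, and the lines read 5′ to 3′ along the strand that carries the motif.
HSPA5 (ERSE, 48 to 66 bases upstream, same strand as the gene): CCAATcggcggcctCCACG
HSP90B1 (ERSE, 176 to 194 bases upstream, same strand): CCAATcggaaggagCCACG
HSP90B1 (ERSE, 71 to 89 bases upstream, opposite strand): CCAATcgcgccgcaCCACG
CRELD2 (ERSE, 62 to 80 bases upstream, opposite strand): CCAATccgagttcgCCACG
CALR (ERSE, 207 to 225 bases upstream, opposite strand): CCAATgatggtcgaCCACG
HERPUD1 (ERSE-II, 107 to 117 bases upstream, same strand): ATTGGgCCACG
SDF2L1 (ERSE-II, 178 to 188 bases upstream, opposite strand): ATTGGtCCACG

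The 250 bases upstream of the start site are printed whole for HSPA5, the central chaperone, and for the 3 genes that passed the test in contact culture (HERPUD1, CRELD2 and DNAJC3). They read along the strand of the gene, so a motif on the opposite strand appears as its reverse complement, and capitals again mark the matched letters. The windows are chr9:125241344-125241593 on the minus strand for HSPA5, and on the plus strand chr16:56931892-56932141 for HERPUD1, chr22:49918384-49918633 for CRELD2 and chr13:95676889-95677138 for DNAJC3.
HSPA5: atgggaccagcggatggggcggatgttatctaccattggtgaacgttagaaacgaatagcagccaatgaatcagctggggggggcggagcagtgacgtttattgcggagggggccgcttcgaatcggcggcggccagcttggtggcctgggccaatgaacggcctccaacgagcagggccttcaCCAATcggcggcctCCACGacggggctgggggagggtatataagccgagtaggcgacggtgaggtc
HERPUD1: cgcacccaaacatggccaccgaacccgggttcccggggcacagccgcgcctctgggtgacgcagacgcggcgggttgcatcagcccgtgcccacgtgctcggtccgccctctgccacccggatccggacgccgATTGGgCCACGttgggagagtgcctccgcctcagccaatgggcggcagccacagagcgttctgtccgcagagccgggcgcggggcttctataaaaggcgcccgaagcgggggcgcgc
CRELD2: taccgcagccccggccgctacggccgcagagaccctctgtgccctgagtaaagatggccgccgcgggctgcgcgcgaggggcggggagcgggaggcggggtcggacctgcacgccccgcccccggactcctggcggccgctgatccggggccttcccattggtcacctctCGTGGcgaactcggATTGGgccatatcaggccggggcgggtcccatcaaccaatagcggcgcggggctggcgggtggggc
DNAJC3: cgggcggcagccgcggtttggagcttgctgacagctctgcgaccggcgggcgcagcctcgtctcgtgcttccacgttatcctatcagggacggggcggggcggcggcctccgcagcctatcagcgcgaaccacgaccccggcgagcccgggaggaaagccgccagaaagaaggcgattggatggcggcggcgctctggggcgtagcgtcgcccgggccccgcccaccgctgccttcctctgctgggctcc

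**Figure D1:**
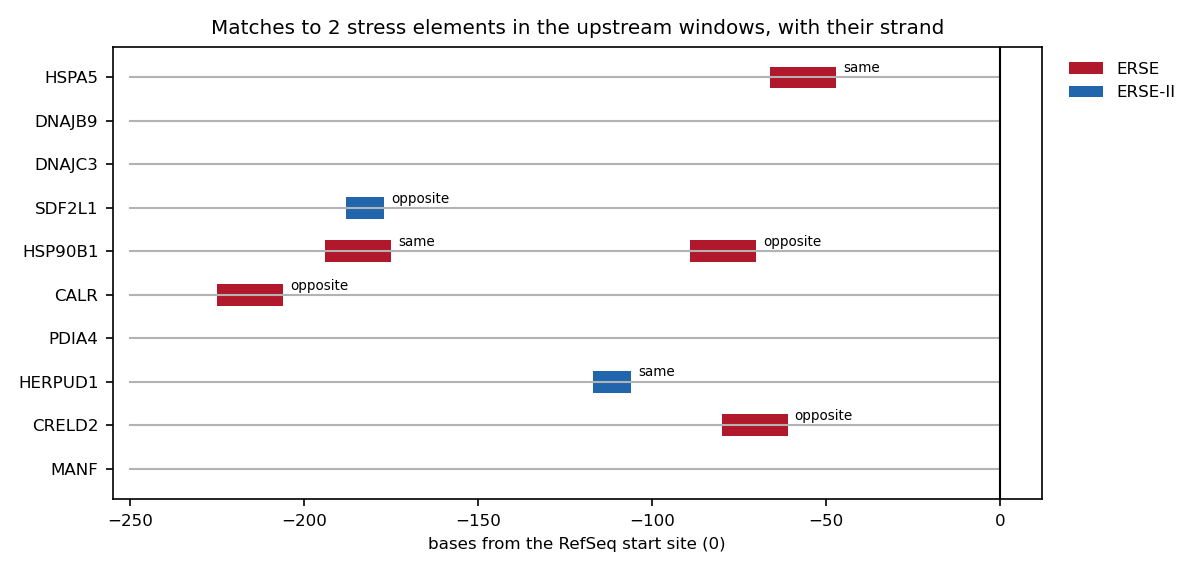
Positions of the motif matches in the 250 bases upstream of the start site of each gene, with bases from the start site on the x axis and 1 line per gene. Boxes are ERSE (red) and ERSE-II (blue), with the strand relative to the gene beside each. HSP90B1 has 2 matches, 5 genes have 1 and 4 genes, both windows of PDIA4 included, have none.

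Levels are given in TPM, a transcript abundance scaled for gene length and library total. Fold changes, with their standard errors (SE), are differences between group means of log2(TPM + 1) from limma, which understate the change of genes near 0. The threshold was a Benjamini-Hochberg adjusted p under 0.05 over the 16696 genes with at least 0.5 TPM in at least 3 libraries. Between libraries of the same group, Pearson's r across genes on the log2 scale was 0.956 to 0.972 in CC and 0.961 to 0.964 in CMed. Monoculture replicate 2 stood apart, at 0.942 and 0.939 with replicates 1 and 3, which correlated with each other at 0.965. Genes listed above 0 numbered 18166 to 19654 in MC, 19784 to 21178 in CC and 19476 to 20054 in CMed. Mitochondrial transcripts took 16.7% to 20.5%, 23.4% to 26.1% and 21.5% to 22.4% of these groups' libraries. EPCAM was at 168 to 206 TPM in MC, 137 to 160.4 TPM in CC and 127 to 145 TPM in CMed. Summed over 15 luminal epithelial markers, levels were 3033 to 3736 TPM in MC, 2297 to 2753 TPM in CC and 2570.0 to 2583 TPM in CMed. Of these, GATA3 and PGR were lower and TFF1 higher in contact culture than in monoculture past the threshold (log2 fold changes −0.93, −3.36 and 2.64). The 29 stromal markers in the table summed to 46.4 to 50.3 TPM in MC, 61.6 to 68.5 TPM in CC and 36.2 to 42.6 TPM in CMed, and 14 of them were tested. Against monoculture, contact culture was higher past the threshold for 6 of these 14 (VIM, FN1, MMP1, CAV1, TWIST2 and PRRX1), or 3 without monoculture replicate 1. CXCL12 was lower, at 22.4 to 25.3 TPM in MC and 1.86 to 4.05 TPM in CC. VIM was at 11.7, 6.28 and 9.20 TPM in contact culture replicates 1, 2 and 3 and at 0.135 to 1.25 TPM in the other 6 libraries. FN1 was at 16 to 22 TPM in CC and 5.09 to 11.5 TPM elsewhere. MMP1 was at 4.02 to 7.74 TPM and CAV1 at 1.89 to 2.98 TPM in CC, and both were listed at 0 in all monoculture libraries. COL1A1 stayed at 2.55 to 6.29 TPM over all libraries, and COL1A2 was below 0.8 TPM in each. PDGFRA and PDGFRB, below the filter, were listed at 0 in all libraries of contact culture and of conditioned medium. The stromal sum, the mitochondrial share and the number of genes above 0 did not overlap between contact culture and monoculture, with contact culture on the higher side, and their part in the results below was not tested.

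By group mean, contact culture was the highest of the groups for 9 of the 10 genes, with PDIA4 the exception. Conditioned medium was the lowest for 7 and monoculture for SDF2L1, HERPUD1 and CRELD2. Levels of the 10 genes summed to 1659 to 1765 TPM in MC, 2267 to 2761 TPM in CC and 1074 to 1477 TPM in CMed. HSPA5, HSP90B1 and CALR supplied 84.9% to 91.8% of this sum in every library.

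**Figure D2:**
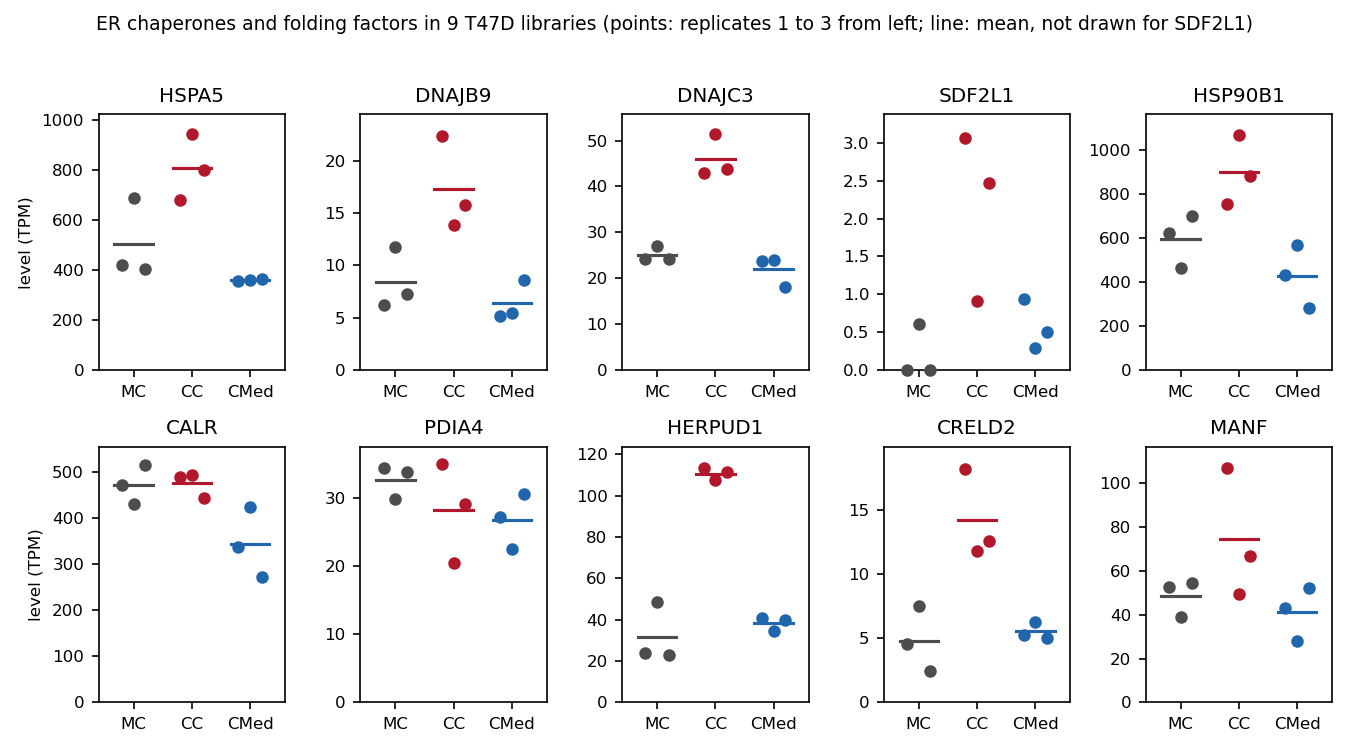
Level in TPM of each of the 10 genes in the 9 libraries, with points for replicates 1 to 3 from left to right and a line for the group mean, left out for SDF2L1 because it is listed at 0 in 2 libraries. HERPUD1 is at 107 to 113 TPM in CC and at most 48.7 TPM elsewhere, whereas all groups overlap with each other for PDIA4 and MANF. CC also overlaps with MC for HSPA5 and CALR, and with CMed for SDF2L1.

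Contact culture was first compared with monoculture. HERPUD1, CRELD2 and DNAJC3 rose, by 1.85, 1.46 and 0.84 on the log2 scale, and none of the 10 genes fell. In bulk RNA, a change per cell and a change in the share of cells that express a gene cannot be told apart. Over all genes tested, 2.15% were higher and 2.84% lower past the same threshold (4.99% in either direction). For 6 of the 10 every contact culture library lay above every monoculture library (HSP90B1, DNAJB9, SDF2L1, HERPUD1, CRELD2 and DNAJC3), against 9.0% of all genes tested. At an unadjusted p under 0.05, 7 of the 10 were higher, against 7.94% of all genes. As the 10 genes were chosen with earlier results of these data known, these shares are descriptions and not tests. The median log2 fold change of the 10 genes was 0.78 and that of all genes −0.08. With each library of the comparison left out in turn, HERPUD1 kept the threshold 6 of 6 times, CRELD2 and DNAJC3 only once, without monoculture replicate 2. CRELD2 was also lost without any 1 library of conditioned medium, which enters through the shared estimate of spread. Without monoculture replicate 2, 6 of the 10 genes rose (HSPA5, DNAJB9, SDF2L1, HERPUD1, CRELD2 and DNAJC3), where 725 of all genes did, against 359 with all libraries. Leaving out any other monoculture library, or contact culture replicate 1 or 3, left HERPUD1 alone.

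HSPA5 (BiP; ENSG00000044574.7, chromosome 9, 125234853 to 125241330, minus strand, GRCh38) is the HSP70 chaperone of the ER lumen and holds the sensors inactive until unfolded proteins draw it away. Its level was 421, 688 and 403 TPM in MC, 681, 945 and 801 TPM in CC, and 357, 362.5 and 364 TPM in CMed. Monoculture replicate 2 lay within the range of contact culture, while the other 2 monoculture libraries lay below all of it. The difference from contact culture to monoculture was 0.71 on the log2 scale (95% interval 0.24 to 1.19, adjusted p = 0.094 from limma). Without monoculture replicate 2 it was 0.96 (adjusted p = 0.0067).

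DNAJB9, DNAJC3 and SDF2L1 serve HSPA5. DNAJB9 (ERdj4; ENSG00000128590.4, chromosome 7, 108569568 to 108574850) is a J-domain co-chaperone that brings misfolded proteins to it. It was at 6.26, 11.8 and 7.22 TPM in MC, 22.4, 13.8 and 15.8 TPM in CC and 5.21, 5.46 and 8.56 TPM in CMed. All contact culture libraries lay above the rest, by a small margin over monoculture replicate 2. The log2 fold change against monoculture was 0.98 (SE 0.28, adjusted p = 0.088), or 1.22 without that library (adjusted p = 0.027).

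DNAJC3 (p58IPK; ENSG00000102580.14, chromosome 13, 95677139 to 95794989) is also a J-domain protein of the ER lumen. It was at 24.2, 27.0 and 24.2 TPM in MC, 42.9, 51.4 and 43.8 TPM in CC and 23.7, 23.9 and 18.2 TPM in CMed. The contact culture libraries lay far above the other 6, which lay close together. The mean rose from 25.1 ± 1.58 to 46.0 ± 4.65 TPM (SD, n = 3 libraries each; log2 fold change 0.84, SE 0.16, limma adjusted p = 0.021). With single libraries left out, its adjusted p reached 0.09.

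SDF2L1 (ENSG00000128228.4, chromosome 22, 21642261 to 21644298) acts with the J-domain protein DNAJB11 in the cycle of HSPA5. It had the lowest level of the 10 genes in every library. Monoculture replicates 1 and 3 listed it at 0 and replicate 2 at 0.613 TPM. Contact culture libraries had 3.06, 0.916 and 2.47 TPM, and those of conditioned medium 0.938, 0.287 and 0.509 TPM. Contact culture lay above monoculture but overlapped with conditioned medium. The log2 fold change against monoculture was 1.36 (adjusted p = 0.055 from limma), and it moved from 0.45 to 3.39 between pseudocounts of 5 and 0.1, as the level is near 0.

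HSP90B1 (GRP94; ENSG00000166598.14, chromosome 12, 103930107 to 103953645) is the HSP90 paralog of the ER, which folds integrins and Toll-like receptors. It was at 621, 464 and 701 TPM in MC, 754, 1067 and 880.1 TPM in CC, and 434.5, 570.1 and 282 TPM in CMed. The contact culture libraries lay above the other 6. With the spread within each group, the log2 fold change against monoculture was 0.60 (95% interval 0.00 to 1.20, adjusted p = 0.24 from limma). C12orf73 lies on the opposite strand over 3444 bases of the HSP90B1 gene, at a mean of 24.7 to 27.7 TPM in the groups, and the pseudogenes HSP90B2P and HSP90B3P were below 0.4 TPM by group mean. The sources used here do not say whether strand was used in counting.

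CALR (calreticulin; ENSG00000179218.13, chromosome 19, 12938578 to 12944489) is a lectin chaperone of glycoproteins and a calcium buffer of the ER. It was at 471, 431 and 516 TPM in MC, 490.1, 494 and 442.5 TPM in CC and 337, 424 and 272 TPM in CMed. Monoculture and contact culture overlapped, with means of 473 ± 42.6 and 475.5 ± 28.7 TPM (SD, n = 3 each). Between them the log2 fold change was 0.01 (95% interval −0.37 to 0.39, adjusted p = 0.98), and its sign changed without monoculture replicate 2 or contact culture replicate 1 or 2 (range −0.05 to 0.08).

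PDIA4 (ERp72; ENSG00000155660.10, chromosome 7, 149003062 to 149028641, minus strand) is a protein disulfide isomerase. It was at 34.4, 29.8 and 33.8 TPM in MC, 35.0, 20.5 and 29.1 TPM in CC, and 27.2, 22.5 and 30.6 TPM in CMed. All groups overlapped. Against monoculture the log2 fold change in contact culture was −0.24 (95% interval −0.72 to 0.24, adjusted p = 0.60), the lowest of the 10.

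HERPUD1 (ENSG00000051108.14, chromosome 16, 56932048 to 56944863) is not a chaperone but a protein of the ER membrane that serves the SYVN1 ligase complex in ERAD. It was at 23.7, 48.7 and 23.2 TPM in MC, 113, 107 and 111 TPM in CC and 41.0, 34.3 and 39.7 TPM in CMed. Every contact culture library was above all others, and monoculture replicate 2 was above the 3 libraries of conditioned medium, whereas replicates 1 and 3 were below them. The mean rose 3.47-fold, from 31.8 ± 14.6 to 110.6 ± 2.93 TPM (SD, n = 3 per group; log2 fold change 1.85, SE 0.26, limma adjusted p = 0.0054). With single libraries left out, the log2 fold change was 1.67 to 2.19 and the adjusted p at most 0.033.

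CRELD2 and MANF are secreted or ER-retained factors that follow ER stress. CRELD2 (ENSG00000184164.14, chromosome 22, 49918167 to 49927540), a protein with EGF-like repeats, was at 4.55, 7.48 and 2.41 TPM in MC, 18.2, 11.7 and 12.6 TPM in CC, and 5.27, 6.24 and 5.04 TPM in CMed. Contact culture lay above both other groups, which overlapped. Its mean rose from 4.81 ± 2.55 to 14.2 ± 3.48 TPM (SD, n = 3 per group; log2 fold change 1.46, SE 0.32, adjusted p = 0.034), with an adjusted p of up to 0.11 when a library was left out.

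MANF (ENSG00000145050.16, chromosome 3, 51385047 to 51389397) binds HSPA5 and steadies its complexes with clients. It was at 52.7, 38.9 and 54.3 TPM in MC, 107, 49.7 and 66.6 TPM in CC and 43.0, 27.8 and 52.3 TPM in CMed. Contact culture replicate 1 was the highest and replicate 2 lay within the range of monoculture. The log2 fold change of contact culture against monoculture was 0.55 (95% interval −0.16 to 1.25, adjusted p = 0.37 from limma).

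Libraries of the same group did not order the 10 genes alike. Monoculture replicate 2 was the highest of its group for 6 genes (HSPA5, DNAJB9, SDF2L1, HERPUD1, CRELD2 and DNAJC3) and the lowest for the other 4. Among the contact culture libraries, replicate 1 was the highest and replicate 2 the lowest for DNAJB9, SDF2L1, HERPUD1, PDIA4, CRELD2 and MANF. The other 4 genes (HSPA5, HSP90B1, CALR and DNAJC3) were highest in replicate 2. Of the stromal markers higher in contact culture, VIM and MMP1 were also highest in replicate 1 and lowest in replicate 2. FN1 went the other way, highest in replicate 2 and lowest in replicate 1. CAV1, PRRX1 and TWIST2 were lowest in replicate 3, with TWIST2 highest in replicate 2. The part of these markers in the order of the 10 genes was not tested.

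**Figure D3:**
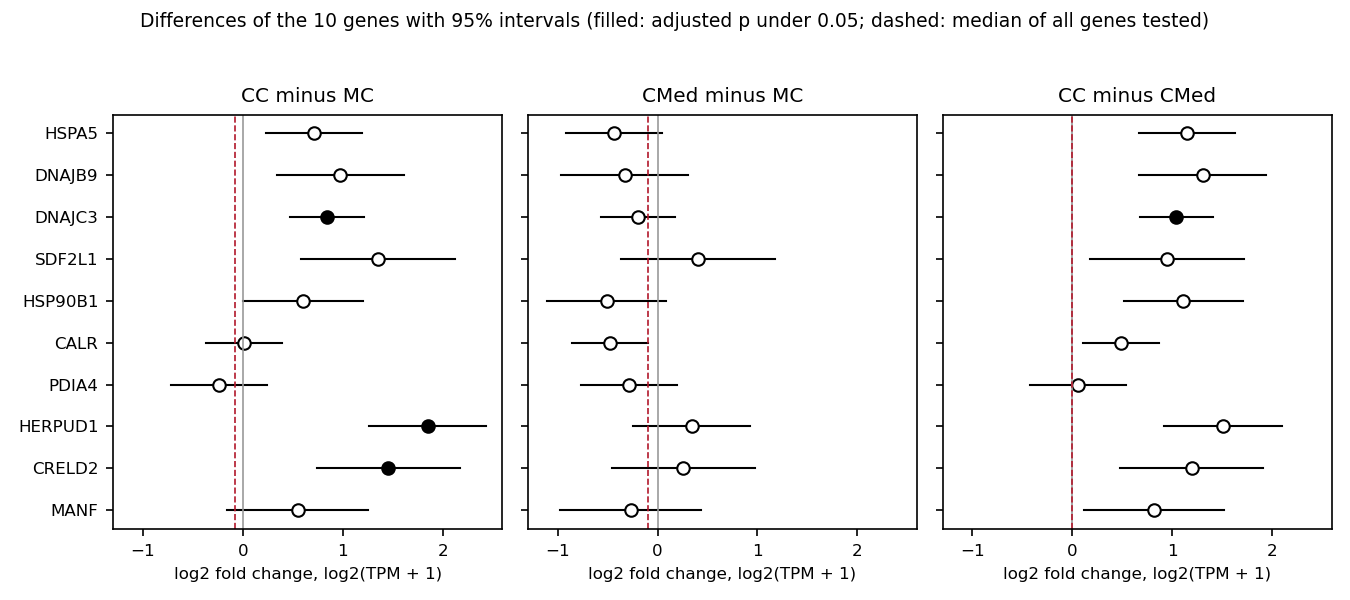
Log2 fold changes of the 10 genes in the 3 comparisons, on the log2(TPM + 1) scale, with 95% intervals from limma, filled points for an adjusted p under 0.05, and a dashed line at the median of all genes tested. HERPUD1, CRELD2 and DNAJC3 are filled in contact culture minus monoculture and DNAJC3 in contact culture minus conditioned medium.

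Conditioned medium was compared with monoculture to address soluble factors alone. None of the 10 genes was past the threshold, where 1.38% of all genes were. At an unadjusted p under 0.05 from limma, only CALR was lower (log2 fold change −0.48, 95% interval −0.86 to −0.09, adjusted p = 0.23), against 10.4% of all genes. CALR, HSPA5 and DNAJC3 had every library of conditioned medium below every monoculture library, against 14.2% of all genes tested. The log2 fold changes of HSPA5 and DNAJC3 were −0.43 (95% interval −0.91 to 0.04) and −0.20 (95% interval −0.57 to 0.17). HSPA5 was nearly the same in the 3 libraries of conditioned medium, at 361 ± 3.83 TPM (SD, n = 3), whereas in monoculture it was at 504 ± 160 TPM (SD, n = 3).

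By estimate, SDF2L1 (0.41), HERPUD1 (0.34) and CRELD2 (0.26) had log2 fold changes above 0 and the other 7 genes below 0, down to −0.51 for HSP90B1. The median over the 10 was −0.28 and that of all genes −0.10, which moved to 0.01 with relative log expression scaling, where the median of the 10 was −0.14. HERPUD1 was at 38.3 ± 3.53 TPM (SD, n = 3) in conditioned medium. Without monoculture replicate 2 its log2 fold change was 0.68 (adjusted p = 0.023), the single call among the 10 genes in any fit of this comparison. In that fit 1013 of all genes passed, against 231 with all libraries.

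Contact culture was then set against conditioned medium, in which the cells also met soluble factors of HS5 cells. This comparison shares its contact culture libraries with the first. DNAJC3 rose (2.10-fold by means; log2 fold change 1.04, SE 0.16, limma adjusted p = 0.039), whereas 0.210% of all genes were higher and 0.371% changed in either direction. That call was lost whichever of the 6 libraries was left out (adjusted p up to 0.19). Every log2 fold change of the 10 genes was above 0, from 0.05 for PDIA4 (below 0 without contact culture replicate 1 or conditioned medium replicate 2) to 1.51 for HERPUD1, with a median of 1.08 against 0.00 for all genes. For 7 of them the contact culture libraries lay above all of conditioned medium (all but SDF2L1, PDIA4 and MANF), against 12.4% of all genes. An unadjusted p under 0.05 was reached by 9 of the 10, all higher, against 7.24% of all genes. The choice of the 10 with earlier results known limits these shares too.

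The values nearest the threshold were those of HERPUD1 (adjusted p = 0.056 from limma), HSPA5 (log2 fold change 1.15, 0.069) and DNAJB9 (1.31, 0.11). HSP90B1 was at 900.3 ± 157.5 TPM in CC and 429 ± 144 TPM in CMed (SD, n = 3 per group; log2 fold change 1.11, adjusted p = 0.14). For CRELD2 the log2 fold change was 1.20 (adjusted p = 0.17), for SDF2L1 0.95 (0.31), for MANF 0.82 (0.33) and for CALR 0.49 (0.29). Without monoculture replicate 2, which enters this fit through the shared estimate of spread, 4 genes passed (HSPA5, DNAJB9, HERPUD1 and DNAJC3), and without monoculture replicate 1 or 3 none did.

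Ratios between genes of the same library do not depend on scaling between libraries. HERPUD2 is the paralog of HERPUD1. It fell from 10.3 ± 0.953 TPM in MC to 4.04 ± 0.371 TPM in CC (SD, n = 3 per group; log2 fold change −1.16, adjusted p = 0.0058 from limma), a call kept whichever of the 6 libraries was left out. The ratio of HERPUD1 to HERPUD2 was 2.55, 4.35 and 2.23 in MC, 29.9, 24.1 and 28.8 in CC and 6.36, 4.76 and 6.57 in CMed, so that no groups overlapped. HERPUD1 over PDIA4 was 0.688, 1.63 and 0.685 in MC, 3.23, 5.25 and 3.82 in CC, and 1.51, 1.53 and 1.30 in CMed. Contact culture lay above both other groups here as well.

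HSPA5 and HSP90B1 were set against CALR, the third abundant gene. HSP90B1 over CALR was 1.08 to 1.36 in MC, 1.54 to 2.16 in CC and 1.04 to 1.35 in CMed, with contact culture above the rest. HSPA5 over CALR was 0.893, 1.60 and 0.780 in MC and 1.39, 1.91 and 1.81 in CC, which overlap through monoculture replicate 2. HSP90B1 over its cytosolic paralog HSP90AB1 was 0.669 to 0.988 in MC, 1.23 to 1.42 in CC and 0.693 to 0.801 in CMed. CRELD2 over CRELD1 was 0.371 to 0.971, 0.991 to 1.58 and 0.647 to 0.785 in the same order. Other ratios to relatives did not separate contact culture from monoculture. HSPA5 over HSPA8 was 2.33 to 10.1 in MC, 4.02 to 9.58 in CC and 2.22 to 2.72 in CMed. DNAJC3 over DNAJC7 was 0.258 to 0.523 in MC, 0.390 to 0.460 in CC and 0.293 to 0.521 in CMed. HSPA5 over HSP90B1 was 0.900 ± 0.0129 in CC, within the ranges of monoculture (0.574 to 1.48) and conditioned medium (0.636 to 1.29). No test was run on these ratios.

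**Figure D4:**
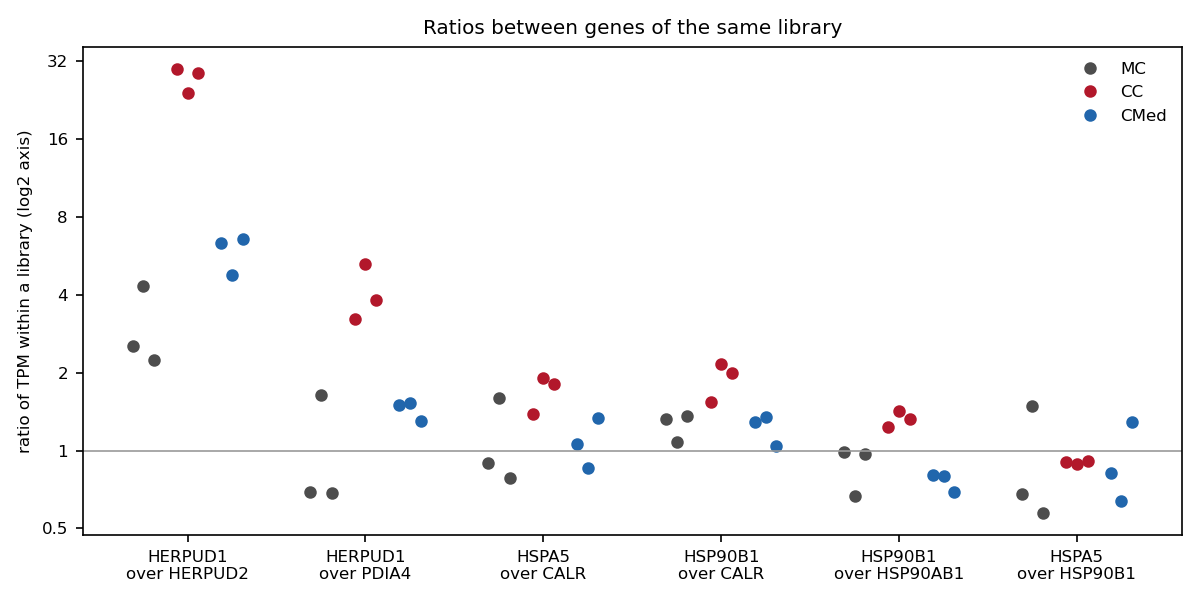
Ratios of TPM between 2 genes of the same library on a log2 axis, with 1 point per library and the groups in grey (MC), red (CC) and blue (CMed). HERPUD1 over HERPUD2 is at 24.1 to 29.9 in CC and at most 6.57 elsewhere, whereas HSPA5 over HSP90B1 shows no such separation.

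Among the nearest relatives of the 10 genes, 11 were tested in contact culture against monoculture, and HERPUD2 was the one past the threshold. The cytosolic HSP90AA1 was the most abundant, at 2862 ± 508 TPM in MC and 2420.0 ± 485 TPM in CC (SD, n = 3 per group; log2 fold change −0.24). HSP90AB1 (log2 fold change −0.01), the cytosolic HSP70 protein HSPA8 (0.05) and the mitochondrial TRAP1 (0.22) had adjusted p values of 0.62 or more. CANX, the membrane-bound counterpart of CALR, was at 215 ± 48.2 TPM in MC and 374 ± 35.5 TPM in CC (log2 fold change 0.82, adjusted p = 0.19). SDF2, the relative of SDF2L1, was at 62.7 ± 8.13 and 44.7 ± 2.93 TPM (log2 fold change −0.47, adjusted p = 0.12).

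Other genes of the pathway were taken from lists, described by their counts and medians in contact culture against monoculture, where 4.99% of all genes were past the threshold. Of 27 other ER chaperones and folding enzymes, 2 rose and 1 fell, with a median log2 fold change of 0.27. ERO1A, the oxidase that recharges disulfide isomerases, rose from 89.7 ± 24.4 to 237 ± 80.9 TPM (SD, n = 3 per group; log2 fold change 1.38, adjusted p = 0.027 from limma). DNAJC10, a J-domain disulfide reductase, rose by 0.71 on the log2 scale (adjusted p = 0.039). TMX1, a membrane-bound disulfide isomerase, fell by 0.73 (adjusted p = 0.023). Leaving out a library kept ERO1A past the threshold in 3 of 6 fits and the other 2 genes in 1, without monoculture replicate 2.

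Of the 12 sensors, proteases and transcription factors tested, 1 fell and none rose, with a median log2 fold change of −0.22. That gene was ATF6B, a relative of ATF6, which went from 4.40 ± 0.137 to 1.94 ± 0.468 TPM (SD, n = 3 per group; log2 fold change −0.89, adjusted p = 0.044). It lost the threshold in 5 of 6 fits without a library and under all 3 other scalings. The call was also lost with no filter, with only the 2 groups compared, with a replicate block and with the largest row per symbol. BHLHA15 was not in the table.

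Of 17 genes of the PERK and ATF4 arm, 10 rose and none fell in contact culture against monoculture, with a median log2 fold change of 1.37. The 10 became 4 without contact culture replicate 3 (CEBPB, CEBPD, DDIT3 and DDIT4), 7 to 11 without any other library of the comparison, and 6 with only the 2 groups in the fit. The largest changes were those of CEBPD (log2 fold change 2.79, adjusted p = 2.06e-04 from limma), DDIT4 (2.43, 0.0077), CEBPB (2.40, 0.0014) and TRIB3 (1.93, 0.012). CEBPD and CEBPB encode transcription factors also induced by cytokines, DDIT4 an inhibitor of mTORC1 and TRIB3 a pseudokinase that binds ATF4. CEBPD was at 7.95 ± 0.938 TPM in MC, 62.2 ± 17.6 TPM in CC and 66.8 ± 5.17 TPM in CMed (SD, n = 3 each). DDIT4 was at 8.12 ± 5.30, 44.5 ± 12.9 and 14.7 ± 2.76 TPM in the same order. TRIB3 lost the threshold without contact culture replicate 3 (adjusted p = 0.056), and CEBPD, DDIT4 and CEBPB kept it in all 6 fits.

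DDIT3 and ATF4, named after their values were seen, belong to the 10. DDIT3 was at 40.5, 63.5 and 43.2 TPM in MC, 156.5, 174 and 162 TPM in CC and 64.9, 74.0 and 82.9 TPM in CMed, and passed whichever library was left out (log2 fold change 1.75, adjusted p = 0.0014). ATF4 was at 13.1, 34.5 and 13.4 TPM in MC and 60.1, 50.2 and 52.8 TPM in CC (log2 fold change 1.52, adjusted p = 0.03), and kept the threshold without monoculture replicate 2 alone. That library was the highest of monoculture for DDIT3, ATF4, TRIB3 and DDIT4, as it was for HERPUD1. In conditioned medium against monoculture CEBPD (2.92, adjusted p = 2.94e-04) and CEBPB (1.99, 0.0078) rose, and they were the only genes of these pathway lists past the threshold with all libraries. Without monoculture replicate 2, 7 genes of this arm passed in that comparison, where 1013 of all genes did, against 231 with all libraries. In contact culture against conditioned medium DDIT3 rose by 1.15 on the log2 scale (adjusted p = 0.049), a call lost whichever of the 6 libraries was left out.

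Of 21 genes of ERAD tested, 2 fell and none rose, with a median log2 fold change of −0.04. SYVN1 (HRD1), the ubiquitin ligase of the ER membrane that HERPUD1 serves, was at 26.6, 28.0 and 26.1 TPM in MC and 15.6, 16.4 and 17.8 TPM in CC, with no overlap. Its log2 fold change was −0.67 (adjusted p = 0.044 from limma). It lost the threshold in 5 of 6 fits without a library, and under all 3 other scalings. No gene of this list was lower past the threshold under those scalings. SELENOS passed, as higher, with relative log expression scaling and without mitochondrial and ribosomal RNA, and no gene passed with upper quartile scaling. SELENOS was at 59.8 ± 19.3 TPM in MC and 116.8 ± 21.5 TPM in CC, with no overlap (SD, n = 3 per group; log2 fold change 0.995, limma adjusted p = 0.063). It was named after its values were seen.

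None of 31 genes of translocation into the ER and transport to the Golgi passed in contact culture against monoculture, and their median log2 fold change was 0.01. At an unadjusted p under 0.05, 6 of the 31 differed in either direction, against 20.3% of all genes. SSR4 passed, as higher, under all 3 other scalings and with a filter of 1 TPM, SRP19 with relative log expression scaling, and 3 genes (SSR4 included, 2 higher and 1 lower) without monoculture replicate 2. Both were named after their values were seen. Of 12 genes of the ER calcium store, RCN1 and NUCB2, both encoding calcium-binding proteins of the secretory pathway, rose by 0.85 (adjusted p = 0.012) and 0.80 (adjusted p = 0.038), in 3 and 1 of the 6 fits without a library. NUCB2 also rose against conditioned medium (1.14, adjusted p = 0.039), a call kept only without conditioned medium replicate 2. Of 14 cytosolic and mitochondrial heat shock genes, HSPB1 fell from 452 ± 36.7 to 217 ± 35.3 TPM (SD, n = 3 per group; log2 fold change −1.06, adjusted p = 0.016) and none rose, with a median of −0.15. HSPB1 lost the threshold without monoculture replicate 1 or 3 or contact culture replicate 3.

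**Figure D5:**
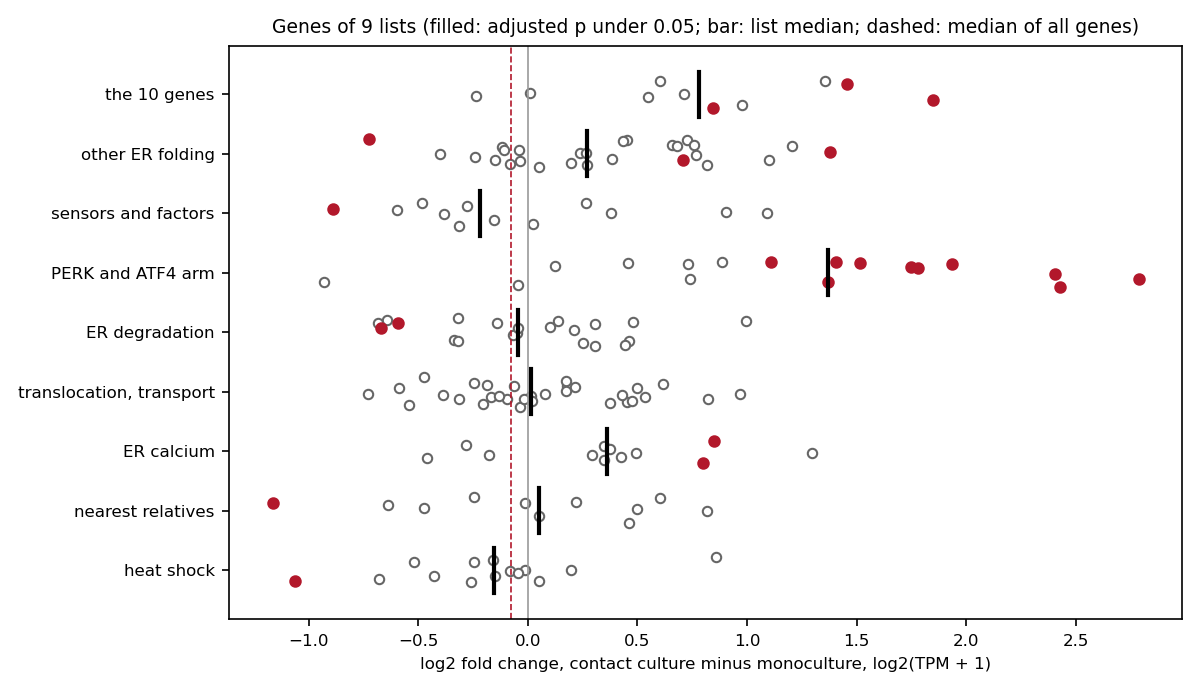
Log2 fold changes of contact culture minus monoculture, on the log2(TPM + 1) scale, for the tested genes of 9 lists, with 1 point per gene, filled where the adjusted p is under 0.05, a bar at each list's median and a dashed line at the median of all genes (−0.08). The 10 genes have a median of 0.78 and the PERK and ATF4 arm, with 10 of 17 filled (4 without contact culture replicate 3), one of 1.37, whereas sensors and factors lie at −0.22 and heat shock genes at −0.15.

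Promoter motifs were looked up in these lists too. ERSE was found for CANX, ERO1B and PDIA6 of 24 other folding genes with a window, and ERSE-II for HYOU1. Neither was found for the genes of ERAD, translocation or the PERK and ATF4 arm that had a window. The XBP1 core was found for 5 of the 24 other folding genes (34 windows), 3 of 16 of ERAD (17 windows) and 7 of 26 of translocation and transport (36 windows). It was found for 0 of 14 of the PERK and ATF4 arm (24 windows) and in 1.97% of all windows. HYOU1, the ER protein with ERSE-II and the XBP1 core that acts as exchange factor of HSPA5, was at 13.4, 7.33 and 20.3 TPM in MC, 19.5, 44.1 and 33.2 TPM in CC and 6.30 to 11.5 TPM in CMed (log2 fold change 1.21 against monoculture, adjusted p = 0.12). It was named for its motifs after the values were seen, and its log2 fold change was the highest among the other folding genes with a match. ERO1B (1.10), CANX (0.82), DNAJC10 (0.71) and FKBP11 (0.27) were also above 0. PDIA6 (−0.03), TXNDC5 (−0.15) and TXNDC11 (−0.40) were below 0. Of these genes only DNAJC10 passed the threshold, and a part of the motifs in these changes was not tested.

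The genes whose levels most resembled those of the 10 were sought among 5358 others with a mean of at least 10 TPM, by correlation of log2(TPM + 1) with the mean z score of the 10 over the 9 libraries. The closest were LSG1 (r = 0.966), STX3 (0.962), AKAP17A (0.953), KRT7 (0.944) and USP11 (0.943). Libraries of a group share their culture condition, so these values mainly reflect 3 groups and carry no test. LSG1 was at 32.1 ± 3.44 TPM in MC, 52.0 ± 9.62 TPM in CC and 28.8 ± 3.29 TPM in CMed (SD, n = 3 each).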

How the data were processed

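Bulk RNA sequencing of 9 T47D libraries was used. Per the labels, total RNA was read as paired ends of 100 bp, at about 25 to 40 M reads. Trim Galore 0.5.0 and STAR 2.6.0 are listed in the processing notes of the submitters. For the genome build, annotation, counting strand and quantifier, nothing is given in the sources used here. The authors deposited values taken here as natural log of (TPM + 1): the libraries then sum to 884208 to 909618 (120543 to 127236 if read as log2). The table holds no read counts, so counting error is unknown.

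Values were returned to TPM, 160 rows named by RNA families were left out of 28624, and rows of the 481 repeated symbols were summed. Genes with at least 0.5 TPM in at least 3 libraries were tested as log2(TPM + 1) in limma 3.58.1, under R 4.3.3 (1 coefficient per group over all 9 libraries, trend and robust empirical Bayes, two-sided). The fit was tested on simulated data. Python 3.11.15 with pandas 2.3.3, numpy 2.4.6 and matplotlib 3.10.9 did the rest. Gene positions come from GENCODE 29 (GRCh38).

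The 10 genes and all lists were chosen with earlier results of these data known. Named were the 10 genes, per list all genes past the threshold or the 4 with the largest change, the relatives, the 5 most similar genes and fixed markers. TWIST2, PRRX1, PDGFRA and PDGFRB were named outside this rule. So were genes named for their motifs or marked as named after their values were seen. For the luminal and stromal markers, calls are listed only for contact culture against monoculture. The alternatives were a pseudocount of 0.1 or 5, 3 other scalings, no filter or a filter of 1 TPM, only the groups compared, a replicate block, a fold criterion, the largest row per symbol, and each library left out. MCF7 cultures, HS27a cultures and MSC monocultures were not analysed here. For ER-associated degradation, the values of 1 gene past the threshold are not reported here.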

Additional observations from a re-analysis of the deposited data

How the results depend on the processing

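Of the 10 genes in contact culture against monoculture, HERPUD1 kept the threshold under every alternative run other than a log2 fold criterion of 2, which left 0 of the 10 in this comparison and in that with conditioned medium. The 3 genes past it became 1 to 6 when a library was left out and 1 with only the groups compared (HERPUD1). Against conditioned medium the 1 gene became 0 to 4 when a library was left out, 2 with a pseudocount of 5 or a filter of 1 TPM (DNAJC3 and HERPUD1), 2 with only the groups compared (HSPA5 and HERPUD1) and 0 with no filter. Conditioned medium against monoculture gave 0 to 1 when a library was left out. Replicate numbers did not pair the libraries (correlations of same-numbered deviations −0.04 to 0.11), and the replicate block gave 2 of the 10 genes in contact culture against monoculture and 0 in both other comparisons, with 509, 102 and 22 genes in all. Sign changes were limited to fits that leave out a library: CALR in contact culture against monoculture (−0.054 to 0.076), CRELD2 in conditioned medium against monoculture (−0.077 to 0.58) and PDIA4 in contact culture against conditioned medium (−0.12 to 0.26). In contact culture against monoculture, the 10 genes of the PERK and ATF4 arm became 4 to 11 without a library, 6 with only the groups compared and 3 with the fold criterion, and the 0 of translocation and transport became 2 with relative log expression. Counts over all genes moved more. In contact culture against monoculture the 833 became 520 with no filter, 319 with only the groups compared, 131 with the fold criterion and 244 to 1727 without a library. In conditioned medium against monoculture the 231 became 125, 111, 75 and 72 to 1013, and in contact culture against conditioned medium the 62 became 28, 97, 18 and 15 to 208. The split of all calls into higher and lower depended on scaling: 359 and 474 in contact culture against monoculture became 440 and 301 with relative log expression, 407 and 340 with upper quartile and 413 and 328 without mitochondrial and ribosomal RNA. For conditioned medium against monoculture 118 and 113 became 146 and 53, 146 and 57, and 119 and 72, and for contact culture against conditioned medium 35 and 27 became 38 and 19 in the last setting. The causes were not tested. Levels near 0, as for SDF2L1, limit what these libraries show.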
